A study of Rattus norvegicus with 60 samples.

Results

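The hypothalamus of P22 rats was compared between offspring exposed to alcohol before birth and control offspring. The 12 hypothalamus samples titled P22 were taken out of the 60 samples of the series, and no measured value entered that choice. They were 4 samples with prenatal alcohol exposure (PAE), 4 control samples (C), and 4 pair-fed samples (PF). Dams of PAE had free access to a liquid diet with ethanol, and dams of C ate a pelleted control diet freely. Each PF dam was matched to a PAE dam and given only as much food as that dam ate. Its liquid control diet held maltose-dextrin and no ethanol. The diets were fed during gestation and followed by laboratory chow. All animals were female offspring of outbred Sprague-Dawley rats, 22 days old, with at most 1 per litter. Replicates 13 and 14 of every group came from breeding cohort Dev-3, and replicates 15 and 16 from Dev-4. White blood cells (WBC) of the same animals were also measured. Outbred animals differ in genotype, and each sample is a whole dissected hypothalamus with its mixture of neurons and glia, whose proportions cannot be told apart from methylation within a cell type.

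The hypothalamus governs the stress response, feeding, body temperature, and sleep, and prenatal alcohol is known to affect several of these functions in offspring. In meDIP-seq, an antibody against 5-methylcytosine pulls down methylated DNA fragments, so a peak marks a place where methylated fragments pile up. Its height depends on the density of methylated CpG sites as well as on the share of cells that carry them. The height was the number of fragments over the highest point of a peak, divided by a scaling factor of the sample. A place without a called peak had no deposited height, which does not mean that it was unmethylated.

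The files held between 16498609 and 18030851 fragments per sample after the authors' filtering. C samples had 143311, 165121, 147229, and 148731 peaks in the order of their replicate numbers, PF samples 159387, 154182, 143069, and 147305, and PAE samples 157565, 172209, 147494, and 170188. The mean was 151098 ± 9624 (SD, n = 4) in C, 150985.8 ± 7235 in PF, and 161864 ± 11566 in PAE, so PAE replicates 14 and 16 were above every other sample while PAE replicate 15 was within the range of C. The difference of 10766 between PAE and C was within the spread of the samples (exact two-sided permutation test, p = 0.2, adjusted p = 0.6 over 15 tests of sample measures, where 4 against 4 samples cannot give a p under 0.0286). PAE also had more fragments on average than C (exact permutation, adjusted p = 0.6), and with the peaks divided by the fragments of each sample (in units of 1e6) the excess over C fell from 7.13% to 3.74%, a difference of 334.4 (exact permutation p = 0.457).

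Samples extracted in round 8 had 160389 ± 10996 peaks (SD, n = 6), those of round 7 had 146334.8 ± 2019 (SD, n = 4), and those of round 11 had 154059 ± 7535 (SD, n = 2). The 2 PF samples of round 8 had a mean of 148625.5, beside 147305 in the PF sample of round 7, and PF replicate 15, of round 8, had the fewest peaks of all, 143069. PAE had 3 of its 4 samples in round 8 and none in round 11, while C had 1 sample in round 8. Within round 8, PAE exceeded C by 1533 peaks (3 PAE, 1 C), and within round 7 by 2224 (1 PAE, 2 C). Within Dev-3 and Dev-4 the difference was 10671 and 10861. The part of the extraction round in the number of peaks was not tested.

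**Figure D1:**
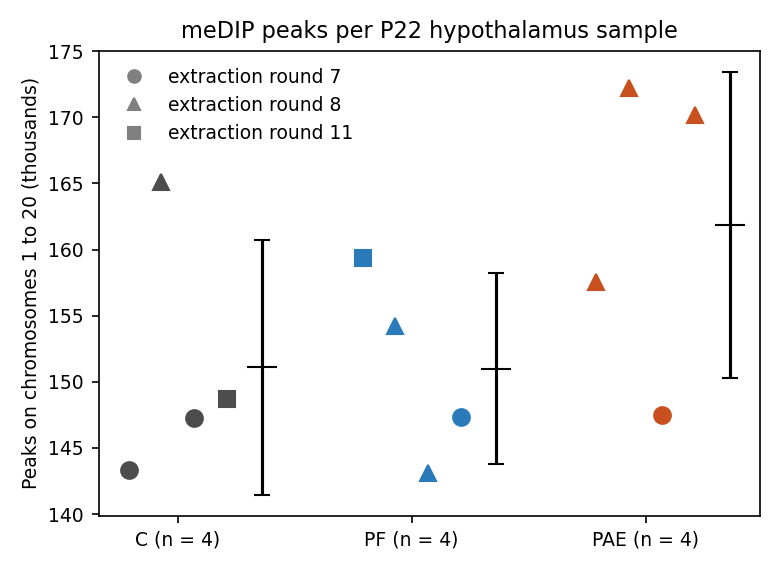
Number of meDIP peaks on chromosomes 1 to 20 (vertical axis) in each P22 hypothalamus sample of C, PF, and PAE, with the extraction round as the shape of the point and the mean and SD of each group as the bar to its right (n = 4). The samples with the most peaks, PAE replicates 14 and 16 and C replicate 14, all came from extraction round 8.

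The samples carried the methylation peaks of their labelled tissue. Between 1656 and 1838 regions had a peak in every other hypothalamus sample and in none of the 8 C and PAE WBC samples. A share of 87.8 to 97.4% of them held a peak in the sample that was left out. Of the regions found in all 8 WBC samples and in no other hypothalamus sample, the share with a peak was 2.94 to 9.76%. The library labelled as WBC of PF replicate 15 went against its label, with a peak in 79% of the hypothalamus regions and in 16.6% of the WBC regions, where the other 11 WBC samples had 2.49 to 6.68% and 84 to 93.1%. It is counted among the PF animals wherever WBC peaks of PF are given below, and no test uses it.

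The peaks of the 12 samples formed 385292 merged regions, of which 222821 had a peak in at least 3 samples and were compared. Their median length was 695 bp. A peak was present in all 12 samples in 36827 of them (16.5%). In a principal component analysis of the log2 heights, the first 3 components held 10.4, 10.2, and 9.65% of the variance. Prenatal group accounted for 0.0864% of the first component, on which PAE replicate 15 stood apart with a score of 0.77 beside -0.21, -0.26, and -0.28 for the other PAE samples. Group accounted for 70% of the second (exact permutation p = 0.00398, adjusted p = 0.0478 over 12 tests). Its scores were -0.44, -0.13, -0.3, and -0.35 in C and 0.08, 0.28, 0.59, and 0.2 in PF, so C and PF did not overlap, and PAE, from -0.14 to 0.27, lay across both. Over the 36827 regions with a peak in all samples, group accounted for 37.2% of the first component (adjusted p = 0.655) and 22.8% of the second (adjusted p = 0.839).

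The comparison of PAE vs. C asked which regions of the hypothalamus carried an altered methylation signal after prenatal alcohol. The region with the smallest p was chr13:90145320-90146188. The scaled height there was 24.5, 57.4, 46.4, and 30.6 fragments in the PAE samples and 21.1 and 13.2 in C replicates 13 and 14, with no peak in C replicates 15 and 16. Every PAE sample was above every C sample, though the lowest PAE height, 24.5, was close to the highest C height, 21.1. The fitted difference between the groups was 1.79 ± 0.29 on the log2 scale (SE, limma, FDR = 0.338), with C replicates 15 and 16 at the floor. The PF samples were higher still, with 77.4, 84.5, 76.1, and 45 fragments. In log2 differences that involve a sample without a peak, a floor of 7.02 fragments stood in for the missing height.

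No region passed an FDR of 0.05 in PAE vs. C (0.0% of 222821 regions, limma, smallest FDR 0.338). At an unadjusted p under 0.05, 6163 regions were higher in PAE (2.77%) and 4348 were lower (1.95%). The larger number of higher regions turned when missing peaks were dropped, with 4798 higher and 6635 lower, and over the regions with a peak in all samples it was 990 higher and 876 lower. With scaling by fragment number it was 7023 and 3764, and under quantile normalization 5526 and 4678. Leaving out C replicate 14, the C sample with the most peaks and the only C sample of round 8, gave 17 regions past the FDR, all higher in PAE. Leaving out C replicate 15, PF replicate 14, PF replicate 15, or PAE replicate 13 gave 1 each, and leaving out PAE replicate 15 gave 2. Without PF replicate 14 the region was chr5:2566585-2567064, without PF replicate 15 chr1:196969305-196969803, and without PAE replicate 13 chr13:90145320-90146188, which all are described here with the other regions of smallest p. With fold enrichment in place of height 3 regions passed, and 30 did when missing peaks were dropped from the fit and not set to the floor. Of the 30, 5 are described here, with an FDR of 1.47e-05 at chr13:90145320-90146188, 4.91e-05 at chr3:163316579-163317415, 0.0129 at chr11:19107734-19108553, 0.0184 at chr8:96060648-96061240, and 0.0276 at chr5:137934772-137935978. The largest FDR over their alternative settings was 0.891, 0.909, 0.898, 0.981, and 0.998. The last 3 have a peak in all 12 samples, and in a fit of only such regions the smallest FDR was 0.166.

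Among the other regions with the smallest p that were higher in PAE, a peak was often the rule in PAE and the exception in C. At chr1:196969305-196969803, an intergenic region that the study also listed, the PAE samples had 34.2, 29.6, 28.9, and 29.6 fragments and no C sample had a peak. The PF samples had 28.2, 25.5, and 20 fragments, with no peak in PF replicate 15, so PF lay between the other groups. The difference PAE vs. C was 2.12 ± 0.36 (log2, SE, FDR = 0.338).

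At chr4:84314238-84315097 the 4 PAE samples had 37.2, 30.5, 25.8, and 31.5 fragments, and none of the 8 C and PF samples had a peak. This was the only region among the 8 with the smallest p and a higher height in PAE in which PAE stood apart from both references without a peak in either. The region was compared only because of its PAE peaks, and both references were at the floor. The difference of 2.14 ± 0.36 against C (FDR = 0.338), and also of 2.14 against PF (FDR = 0.171), thus depends on the floor. No conclusion is drawn from its size or its FDR. No WBC sample of C or PAE had a peak there, while PF replicate 13 had a WBC peak of 10 fragments. No P1 hypothalamus of C or PAE had a peak there. At P8, 1 C sample had a peak, and at P15, 2 C samples and 1 PAE sample did.

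At the remaining 5 of these 8 regions the PF mean was nearer to PAE than to C. At chr13:105932547-105933106 the PAE samples had 23.5 to 28.7 fragments and the PF samples 22.6 to 29.5, while C had 1 peak of 13.2 fragments in replicate 14 (PAE vs. C 1.66, PAE vs. PF -0.01). The region chr20:38340020-38340486 had the same layout, with 25.8 to 34.1 fragments in PAE, 27.5 to 35.2 in PF, and 1 C peak of 22.7 fragments, also in C replicate 14 (PAE vs. C 1.7). Without C replicate 14 they passed, at an FDR of 0.0321 and 0.0112, where the largest FDR over their 25 alternative settings was 0.891 and 0.935.

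No C sample had a peak at chr15:84283002-84283775, chr5:2566585-2567064, or chr2:239011975-239012436. At chr15:84283002-84283775 the PAE samples had 20.6 to 27.8 fragments and the PF samples 14.7 to 26.1. At chr2:239011975-239012436 they had 20.6 to 26.8 and 16.5 to 28. At chr5:2566585-2567064 they had 26.8 to 36.1 fragments in PAE and 30.2, 24.7, and 43 in PF, without a peak in PF replicate 14. All 12 WBC libraries, with the one labelled PF replicate 15 among them, had a peak at chr5:2566585-2567064. They include those of the 4 C animals whose hypothalamus had none.

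Of the 8 regions with the smallest p that were lower in PAE, 5 had no peak in any PAE sample. At chr7:115297474-115298055 the C samples had 27.5, 22.7, 23.8, and 25.6 fragments and the PF samples 24.1, 13.8, 17.5, and 22 (PAE vs. C -1.82 ± 0.31, SE, FDR = 0.338). At chr16:1473074-1473544 C had 18, 35, 25.9, and 20.4 fragments and PF 28.2, 21.6, 25.7, and 19. At chr16:83982201-83982842 C had 17 to 25.4 and PF 20.6 to 25 fragments. Every C and PF sample carried a peak at these regions and every PAE sample lacked one.

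The same held at chr10:103695589-103696236, where C had 21.1, 14.2, 31.1, and 26.6 fragments and PF had 39.2, 26.5, 24.7, and 27. The difference was -1.67 ± 0.31 against C (FDR = 0.363) and -2.04 ± 0.31 against PF (FDR = 0.0497). The call against PF held in only 4 of 23 alternative settings, and it was lost with extraction round or sequencing pool in the fit. At chr9:117054-117627 C had 23.6 to 34.8 fragments, and PF had 36.2, 31.4, and 23.7 with no peak in PF replicate 16.

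In the other 3 of these 8, at least 1 PAE sample had a peak. At chr2:45486258-45486868 it was PAE replicate 14 with 17 fragments, beside 23.5 to 28.5 in C and 22.1 to 26.5 in PF. At chr3:163316579-163317415 PAE had 12.7, 13.5, and 16.7 fragments with no peak in replicate 15, beside 21.1, 50.1, 35.2, and 37.8 in C. A graded difference was seen at chr11:19107734-19108553, where all 12 samples had a peak. C had 41.2, 48.2, 38.4, and 48 fragments (mean 44 ± 4.97, SD, n = 4), PF 27.1, 34.4, 31.9, and 33 (31.6 ± 3.14), and PAE 22.5, 24.2, 19.6, and 26.9 (23.3 ± 3.05). The 3 groups did not overlap, and the height was lowest in PAE and highest in C (PAE vs. C -0.92 ± 0.19, SE, FDR = 0.516).

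**Figure D2:**
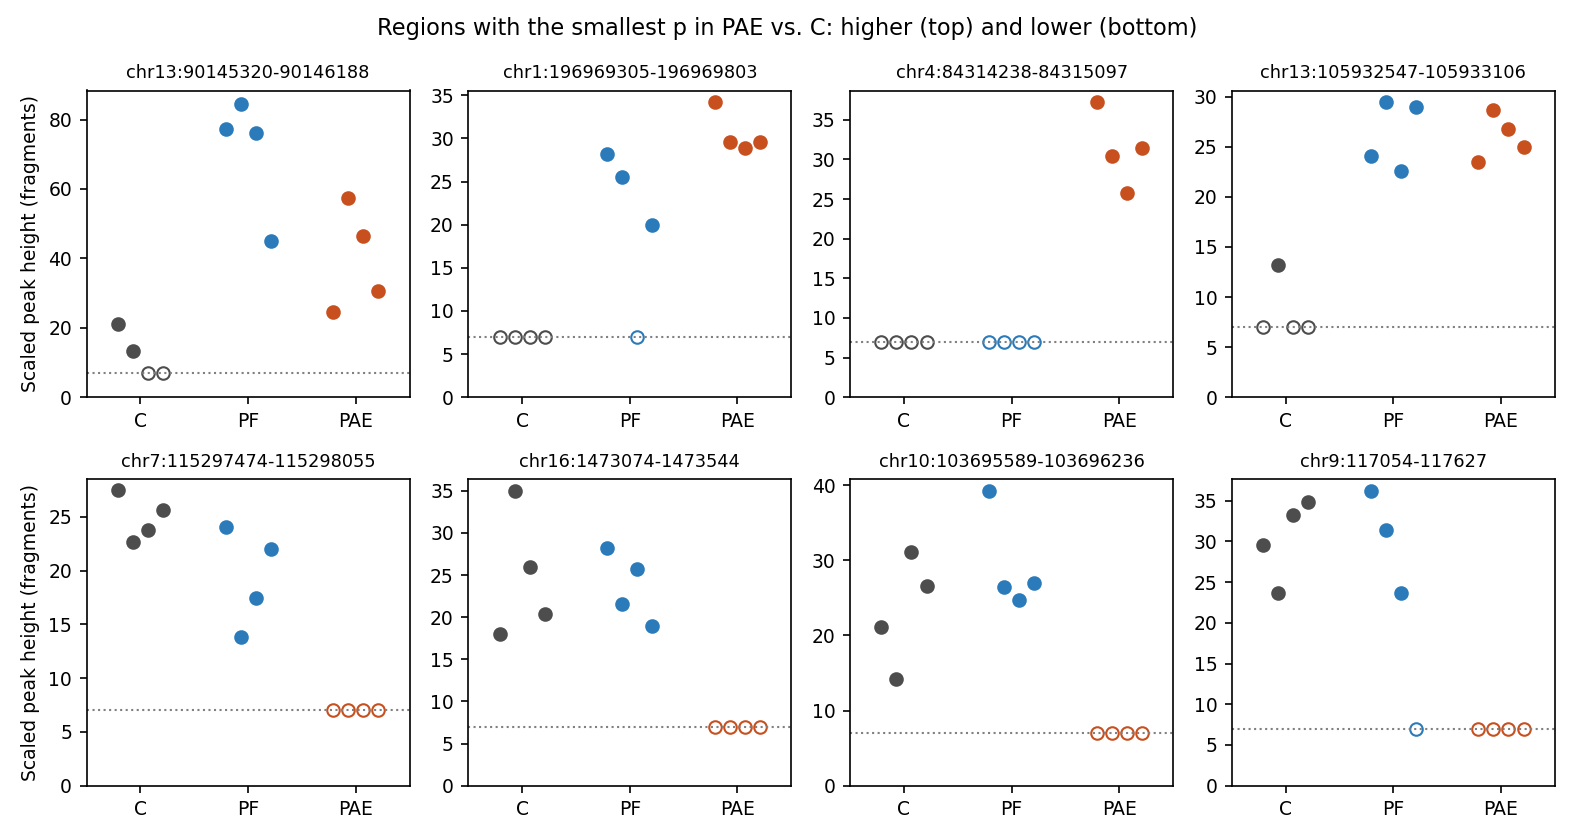
Scaled peak height (vertical axis, fragments) in each P22 hypothalamus sample of C, PF, and PAE at the 4 regions with the smallest p that were higher in PAE (top row) and the 4 that were lower (bottom row). Open points on the dotted line are samples without a called peak, drawn at the floor of 7.02 fragments. At chr4:84314238-84315097 only the 4 PAE samples had a peak, and at 4 of the 8 regions the PAE samples had none.

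Regions with a peak in all 12 samples need no floor. Among these, PAE lay above both C and PF without overlap in 91 (0.247%) and below both in 58 (0.157%). C lay above both other groups in 105 (0.285%) and below in 96 (0.261%), and PF in 79 (0.215%) and 92 (0.25%). Over all regions the numbers were 421 (0.189%) and 167 (0.0749%) for PAE, 479 (0.215%) and 249 (0.112%) for C, and 355 (0.159%) and 257 (0.115%) for PF. Where PAE was above both, the largest difference from C was at chr7:143883166-143884138, with 30.3, 28.7, 32, and 31.5 fragments in PAE, 27.5, 18, 13.5, and 16.4 in C, and 24.1, 21.6, 21.6, and 28 in PF. The difference was 0.75 ± 0.24 (log2, SE, FDR = 0.927). At chr13:109233271-109233969 PAE had 44, 55.6, 53.6, and 52.8 fragments against 16.9 to 42.6 in C and 31.2 to 42.2 in PF (0.71). The next were chr4:147356082-147356719 (0.7), chr3:165606330-165608381 (0.68), and chr13:50541068-50542006 (0.63), where PAE had 39.1, 34.1, 33, and 41.7 fragments and C 18.9 to 26.9.

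Where PAE was below both, the largest difference from C was at chr5:137934772-137935978. PAE had 14.7, 13.5, 14.4, and 10.2 fragments there, C had 24.3, 29.3, 30.1, and 22.5, and PF had 16 to 19.1 (PAE vs. C -1.01 ± 0.26, SE, FDR = 0.927). It was followed by chr11:19107734-19108553, described above, chr7:135279097-135280578 (-0.87), chr10:37319559-37320299 (-0.75), and chr3:94202897-94203557 (-0.7). At these regions the PAE and C samples differed by less than 2-fold in most cases. That PAE did not overlap C or PF there follows from the rule that chose the regions.

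Over all regions, PAE was above C without overlap in 2310 (1.04%) and below C in 1998 (0.897%). PAE was above PF in 2308 (1.04%) and below PF in 1818 (0.816%), and PF was above C in 2243 (1.01%) and below C in 2480 (1.11%). The separation of PAE from C thus was no more frequent than that of PF from C. With scaling by fragment number PAE was above C in 2646 and below in 1554, and under quantile normalization in 2013 and 2153, so there the larger number of regions above C turned. It also turned with any 1 C sample left out, where 45.1 to 48.6% of the separated regions were above C, while with any 1 PAE sample left out 57.8 to 60.4% were. The share of regions above C without overlap was between 0.642% on chromosome 10 and 1.41% on chromosome 13. The share below C was between 0.707% on chromosomes 5 and 15 and 1.5% on chromosome 12.

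Few neighbouring regions separated together. PAE was above C in 20 pairs of adjacent regions and in 1 run of 3, and below C in 15 pairs and in 1 run of 3. Of all single regions, 1.04% were above C and 0.897% below without overlap. How many pairs and runs these shares give by themselves was not tested, and runs were counted for PAE vs. C only. No conclusion is drawn from their number. The runs of 3 were picked out after their values were seen. The one above C spanned 47180 bp at chr8:96060648-96107827 and had peaks in all 12 samples in each region. At its first region, chr8:96060648-96061240, PAE had 35.2, 41.3, 41.2, and 47.2 fragments, C had 28.5, 18, 18.7, and 23.5, and PF had 29.2, 40.3, 28.8, and 25 (PAE vs. C 0.91 ± 0.22, SE, FDR = 0.791). The other regions of the run differed by 0.75 and 0.33. That below C spanned 70436 bp at chr2:161427631-161498066, with differences of -0.52, -0.3, and -0.95. Its last region, chr2:161497496-161498066, is also the one with the largest negative difference in the study's developmental list. C had 20.1, 16.1, 20.7, and 24.5 fragments there and PF had 16.1 to 24.6, while PAE replicates 14, 15, and 16 had 9.87, 11.3, and 14.8 and replicate 13 had no peak.

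A peak was present in every PAE sample and in no C sample in 557 regions (0.25%), and in every C sample and no PAE sample in 254 (0.114%). The same counts were 550 (0.247%) and 282 (0.127%) for PAE and PF, and 442 (0.198%) and 483 (0.217%) for PF and C. PAE had more peaks per sample, and the part of that in these counts was not tested. Of the 557 regions, 79 had no PF peak and 47 had one in all 4 PF samples. A peak in all samples of 1 group and in none of the other 8 occurred in 79 regions for PAE (0.0355%), 44 for PF (0.0197%), and 43 for C (0.0193%). A peak missing from 1 group and present in all other samples occurred in 17 regions for PAE (0.00763%), 41 for PF (0.0184%), and 47 for C (0.0211%).

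The tallest of the peaks found in every PAE sample and no C sample was at chr9:12214076-12214567, with 30.3, 34.1, 37.1, and 36.1 fragments in PAE and 32.4 in PF replicate 14. Its fold enrichment over the local background was only 2.3 to 2.7, so the peaks stood little above a high background. The next were chr14:12016228-12016670, with 25.9 to 41.1 fragments in PAE and 35 and 34 in PF replicates 15 and 16, and chr5:2566585-2567064. At chr15:5640057-5640513 PAE had 39.1, 28.7, 27.8, and 28.7 fragments and PF replicate 14 had 33.4. WBC peaks at chr15:5640057-5640513 were present in 1 C, 3 PF, and 1 PAE animal, the PF count with the library labelled replicate 15.

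The tallest of the peaks found in every C sample and no PAE sample was at chr9:117054-117627, given above. It was followed by chr7:115297474-115298055, chr16:1473074-1473544, chr1:277306153-277307143, chr16:19077577-19078508, and chr20:48819996-48820709. At chr1:277306153-277307143 C had 26.4, 20.8, 21.8, and 29.6 fragments, PF had 18.1 and 18.5 in replicates 13 and 15, and PAE had none. In WBC, PF replicate 13 and the library labelled PF replicate 15 had a peak there again, as did C replicates 14 and 15, and no PAE animal did.

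With pair-fed animals as the reference, 6 regions passed an FDR of 0.05 in PAE vs. PF (0.00269%), 5 higher in PAE and 1 lower, and 6 passed in PF vs. C (0.00269%), 1 higher in PF and 5 lower. At an unadjusted p under 0.05, 6018 regions were higher in PAE than in PF (2.7%) and 4203 lower (1.89%), and 5907 were higher in PF than in C (2.65%) and 5938 lower (2.66%). With missing peaks dropped, 4821 were higher and 6502 lower in PAE than in PF, and over the regions with a peak in all samples 876 were higher and 832 lower. These comparisons share the PF samples. No region met the study's definition of a PAE-specific DMR, which asks for a difference from both C and PF and none between PF and C (limma, 0 of 222821). At an unadjusted p under 0.05, 1732 regions met it with higher and 586 with lower values in PAE. The 2 numbers are not directly comparable, since a region with a peak in only 3 samples, all from PAE, can count as higher. Such a region was compared only because of its PAE peaks. Among regions with a peak in 4 or more samples it was 1131 and 586, and the cause of the gap that remained was not tested. The order turned with missing peaks dropped, to 718 higher and 1350 lower, and over the regions with a peak in all samples, to 115 higher and 159 lower. Without PAE replicate 15, 1 region did at the FDR.

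The 5 regions higher in PAE than in PF, which were chosen after their values were seen, had a peak in every C and every PAE sample and in no PF sample. All PF samples were thus set to the floor there. The differences, SE, and FDR below depend on that floor, and no conclusion is drawn from their size. At chr6:98572846-98573324 C had 20.1 to 31.1 fragments and PAE 24.1 to 37.1 (PAE vs. PF 2.11 ± 0.28, SE, FDR = 0.014). At chr12:33713143-33713589 C had 29.6 to 35.8 fragments and PAE 18.6 to 36.1 (1.98, FDR = 0.0194). At chr15:8970674-8971573 they had 27.4 to 32.7 and 17.6 to 33.2 (1.92, FDR = 0.0342), and at chr19:53139463-53139967 25.9 to 32.7 and 22.4 to 32 (2, FDR = 0.014). With fold enrichment in place of height, chr12:33713143-33713589, chr15:8970674-8971573, and chr19:53139463-53139967 no longer passed in PAE vs. PF, while chr6:98572846-98573324 did. In WBC of the same PF animals, 3 of 4 had a peak at each of these 4 regions. Among them is the library labelled PF replicate 15.

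The fifth was chr9:12362676-12363505, where C had 103, 62.4, 103, and 74.6 fragments and PAE 85.1, 70.9, 101, and 80.6. With PF at the floor it passed at an FDR of 1.84e-09 in PAE vs. PF. No size of the difference is given, since a missing peak there does not bound the height in PF. These heights were among the tallest of the named regions, yet the fold enrichment was only 2.4 to 4, since the local background was high. A far taller peak lay 2207 bp before it in all 12 samples, with 139 to 201 fragments in C, 202 to 338 in PF, and 191 to 296 in PAE. All 12 WBC libraries, with the one labelled PF replicate 15 among them, had a peak at chr9:12362676-12363505. With fold enrichment in place of height this region no longer passed, at an FDR of 0.965 in PAE vs. PF. The lowest FDR over its 24 alternative settings was 6.18e-10, with PF at the floor.

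With extraction round as a further term 2 regions passed for PAE vs. PF and with sequencing pool 1. Of the 6 called above only chr9:12362676-12363505 was among them. For PF vs. C 3 regions passed in each of these fits, chr9:12362676-12363505, chr12:33713143-33713589, and chr13:90145320-90146188, which are 3 of the 6. Leaving out C replicate 13, PAE replicate 14, or PAE replicate 16 gave 3 regions in PAE vs. PF, leaving out PAE replicate 13 gave 1, and leaving out PF replicate 15 gave 10. In PF vs. C, leaving out C replicate 14 gave 21 regions and leaving out PF replicate 14 gave 12. In PAE vs. PF, chr9:12362676-12363505 passed in 23 of 24 alternative settings. PF had no measured height there, so these passes rest on the floor and do not show a stable difference. With fold enrichment in place of height its FDR was 0.965. The region chr6:98572846-98573324 passed in 16, chr19:53139463-53139967 in 15, chr12:33713143-33713589 in 14, and chr15:8970674-8971573 in 9, also with PF at the floor. The region chr10:103695589-103696236, without a peak in any PAE sample, passed in 4 of 23. In PF vs. C the 5 regions without a peak in PF passed in 23, 8, 18, 21, and 16 of 24 in the same order, again with PF at the floor. The region chr13:90145320-90146188 passed in 23 of 25.

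The region chr13:90145320-90146188 was the 1 region called higher in PF than in C (2.67 ± 0.29, SE, FDR = 0.000765). All PAE and PF animals, which had a hypothalamus peak there, also had one in WBC. As deposited and without scaling, the hypothalamus heights of PAE replicates 13 to 16 were 25, 64, 45, and 33 fragments, and the WBC heights of the same animals were 22, 72, 59, and 44. PF replicates 13, 14, and 16 had 77, 86, and 45 fragments in the hypothalamus and 105, 113, and 53 in WBC. The library labelled WBC of PF replicate 15 had 22, beside 74 in the hypothalamus. No C animal had a WBC peak there. In WBC the difference PAE vs. C was 2.89 (limma, FDR = 0.367), with 4 of 4 PAE and 0 of 4 C animals showing a peak. At earlier ages the peak was present in some animals of both groups, in 4 PAE and 2 C hypothalami at P1, in 2 and 2 at P8, and in 1 and 2 at P15.

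**Figure D3:**
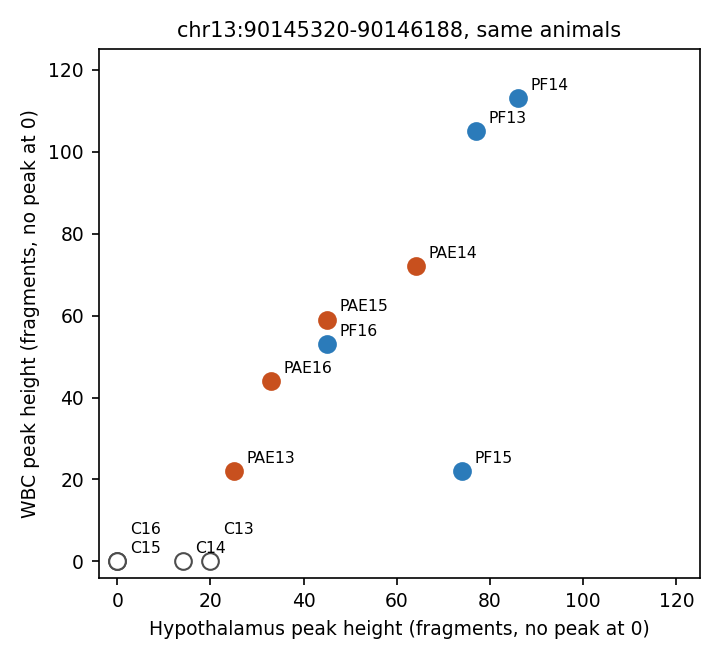
Height of the peak at chr13:90145320-90146188, as deposited, in the hypothalamus (horizontal axis, fragments) and in WBC (vertical axis, fragments) of each of the 12 P22 animals, with samples without a peak drawn at 0 and open points for animals lacking a peak in either tissue. Animals with a tall hypothalamus peak also had a tall WBC peak, except PF replicate 15, whose WBC library went against its label.

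The 100 regions with the smallest p in each direction were followed in the other samples of the series. In WBC of the same animals, 47 of the 72 measured higher regions were also higher in PAE (65.3%), where 51.4% of all 149933 measured regions were. Of the 74 measured lower regions, 42 were also lower (56.8%, beside 48.6% of all). At an unadjusted p under 0.05 in WBC, 4 of the 72 were higher and 5 of the 74 lower, beside 2.46% and 2.17% of all regions. In the opposite direction it was 1 of the 72 and 4 of the 74. The region chr3:163316579-163317415 was 1 of the 5, at -0.6 in WBC (FDR = 0.966). A test of whether the difference PAE vs. C itself differed between hypothalamus and WBC passed an FDR of 0.05 in 0 of 133228 regions (0.0%, limma, 3510 higher and 3461 lower at an unadjusted p under 0.05).

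The same regions were followed in younger hypothalami. At P1, 45 of 79 higher regions (57%, beside 49.8% of all) and 38 of 79 lower regions (48.1%, beside 50.2%) kept their direction. At P8 it was 50 of 88 (56.8%, beside 55.6%) and 36 of 86 (41.9%, beside 44.4%), and at P15 it was 41 of 89 (46.1%, beside 45.1%) and 54 of 83 (65.1%, beside 54.9%). Unadjusted p under 0.05 was reached at P1 by 2.38% of all regions higher in PAE and 2.27% lower, at P8 by 3.3% and 1.42%, and at P15 by 1.95% and 3.36%. Of the followed higher regions it was reached in the same and in the opposite direction by 4 and 0 at P1, 7 and 0 at P8, and 5 and 6 at P15. Of the lower regions it was 3 and 5, 1 and 6, and 6 and 1. Some P8 and P15 animals of both groups, and 1 C animal of P1, came from litters that also gave a P22 sample. Without these animals the share of followed regions with the same direction went from 52.5 to 55.1% at P1, from 49.4 to 48.1% at P8, and from 55.2 to 48.3% at P15. Those with an unadjusted p under 0.05 in the same direction went from 7 to 5, from 8 to 3, and from 11 to 7, with fewer regions measured at P8 and P15. The region chr5:2566585-2567064 had a higher height in PAE at P8 (1.49, FDR = 0.98) and P15 (0.45) and a lower one at P1 (-0.6). At chr3:163316579-163317415 PAE was lower at P1 (-0.95, FDR = 0.982) and P15 (-0.46) and not at P8 (0.15).

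The study published lists of intervals with a PAE-related difference, 118 from the hypothalamus across ages and 299 from hypothalamus and WBC at P22. Both were chosen on reads that include these samples and so are no independent evidence of a direction. Of the 118 developmental intervals, 4 lay outside chromosomes 1 to 20 and were not examined, 49 overlapped a compared region, 33 had no peak in any P22 hypothalamus sample, and 32 had a peak in only 1 or 2. Their 49 regions were higher in PAE in 21 and lower in 28, with a median difference vs. C of -0.13, beside 0.02 over all regions. An unadjusted p under 0.05 was reached by 1 higher and 4 lower, 10.2% of the list beside 4.72% of all regions. These 5 were 3 without C replicate 14 and 2 without PAE replicate 13. The largest positive difference of this list was at chr9:20969820-20970514, an intergenic region with 19.6, 12.6, 16.5, and 22.2 fragments in PAE, 15.7 and 13 in PF replicates 14 and 16, and no peak in C (1.3 ± 0.41, SE, FDR = 0.927).

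Of the 299 tissue-concordant intervals, 8 lay outside chromosomes 1 to 20, and 158 overlapped a compared region. These were higher in PAE vs. C in 55 and lower in 102, with a median of -0.25, and 17 higher and 18 lower had an unadjusted p under 0.05, 22.2% of the list beside 4.72% of all regions. With missing peaks dropped the 35 became 18, and with extraction round in the fit 51. Against PF, 56 were higher and 102 lower, with a median of -0.34. The largest difference above C in this list was chr1:196969305-196969803, given above. There the difference was -0.05 in WBC, -1.27 at P8, where 3 C samples and 1 PAE sample had a peak, and 0.16 at P15. The largest below was the intergenic chr10:10909785-10910457, where C had 30.7, 34.1, 28, and 24.5 fragments and PF had 22 to 34.4, while among the PAE samples only replicate 13 had a peak, with 26.4 fragments (-1.57 ± 0.33, SE, FDR = 0.592). There the difference was -0.09 in WBC, 0.13 at P1, 0.22 at P8, and 0.09 at P15.

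By their labelled place, most regions of both lists lay between genes. In the tissue-concordant list 117 were intergenic, with a median of -0.24, 30 were in introns, with a median of -0.31, and 11 lay at exons, promoters, or intron/exon boundaries, with a median of -0.38. In the developmental list 39 intergenic regions had a median of -0.23, 5 intronic regions 0.07, and 5 at exons or boundaries -0.01.

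Genes of immune receptors and innate signalling were represented by 8 listed genes, of which 5 had a compared region, 2 higher in PAE and 3 lower (median -0.38). None passed the FDR, and 1 of the 5 had an unadjusted p under 0.05, where 22.2% of the tissue-concordant and 10.2% of the developmental list did. It lay in an intron of Map3k13, a kinase that acts upstream of JNK signalling. At this region, chr11:82797820-82799020, PAE had 16.6, 21.5, 12.4, and 25 fragments, C had 31.7, 23.6, 21.8, and 28.6, and PF had 32.2, 31.4, 37, and 34 (PAE vs. C -0.52 ± 0.24, SE, FDR = 0.978). The PAE samples overlapped those of C and lay below all of PF (PAE vs. PF -0.88, FDR = 0.95). At Ccrl2, a chemokine-like receptor that binds chemerin, the region chr8:119324767-119325565 at an intron/exon boundary had a peak in PAE replicates 15 and 16, of 15.5 and 13 fragments, in PF replicate 14, and in no C sample. At Nlrp1a, an inflammasome sensor, and at Rassf5, a Ras association protein of lymphocytes, no PAE sample and 2 C samples had a peak.

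The listed intervals in Ifih1, a sensor of viral RNA, Il20ra and Il18r1, which encode cytokine receptor chains, had a peak in 1 of the 12 samples each and could not be compared. The same held for several other genes of the lists. The interval in Drd4, a dopamine receptor, had a peak in 2 samples, and those in Plvap, a protein of vessel walls, and Mycbp, a partner of Myc, had none. One of the intervals in Golga4, a Golgi protein, had a peak in 1 sample and the other in none, Fgf9, a growth factor, had none, and Ctnnbip1, an inhibitor of Wnt signalling, had 1. Ugt1a1, which conjugates bilirubin and drugs, had a peak in 2 samples. None of the 5 listed genes of the vessel wall and basement membrane had a compared region.

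Among 13 listed genes of neurotransmission and ion channels, 6 had compared regions, 8 in number, of which 3 were higher in PAE and 5 lower (median -0.02). No region passed the FDR, and 1 in each direction had an unadjusted p under 0.05, which is 25% of 8 beside 22.2% of the tissue-concordant list. The higher one was in an intron of Caln1, a calcium-binding protein of neurons. At chr12:29637821-29639039 all 4 PAE samples had a peak, with 24.5, 25.1, 28.9, and 11.1 fragments, as did C replicates 15 and 16, with 14.5 and 16.4, and PF replicate 13, with 10.1 (PAE vs. C 1.02 ± 0.43, SE, FDR = 0.978, and PAE vs. PF 1.46, FDR = 0.95). PAE was above C by 1.82 within Dev-3 and by 0.22 within Dev-4. The other Caln1 regions went different ways in PAE vs. C, with 0.72 at chr12:29736869-29737477 (0.25 without C replicate 13) and -0.37 at chr12:29643946-29645185 (-0.03 without C replicate 14).

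The lower one was in an intron of Lpar1, a receptor for lysophosphatidic acid that is abundant in oligodendrocytes. At chr5:75657956-75658549 C had 20.1, 33.1, 17.6, and 16.4 fragments, PAE had 19.7 and 15.7 in replicates 14 and 16 and no peak in the others, and PF had 28.2, 30.5, and 19.5 (PAE vs. C -0.91 ± 0.41, SE, FDR = 0.978). The difference there was -0.91 at P1, 0.46 at P8, and -0.9 at P15 (FDR = 0.908), and 0.41 in WBC. At Kcnmb4, a subunit of calcium-activated potassium channels, no PAE sample had a peak and 2 C samples did. At Tpcn1, an endolysosomal channel, 3 PAE samples and 1 C sample did, and the difference was 1.17 in WBC (FDR = 0.966), 0.89 at P8, and -0.63 at P15.

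Among 10 listed genes of neuronal adhesion and the synapse, 5 had a compared region, 1 higher in PAE and 4 lower (median -0.12). Of the tissue-concordant list 102 of 158 regions were lower, and of the developmental list 28 of 49. None of the 5 passed the FDR, and 1 had an unadjusted p under 0.05, where 22.2% and 10.2% of the lists did. The region in Anks1b, a scaffold of the postsynaptic density, had a peak in C replicates 14 and 16 and PF replicate 16 and in no PAE sample (PAE vs. C -0.56 ± 0.25, SE, FDR = 0.978). In Dscam, a cell adhesion molecule of neuron self-recognition, PAE replicates 13, 14, and 16 had 18.6, 17.9, and 14.8 fragments, and 1 C and 1 PF sample had a peak (0.79, FDR = 0.978, with 1.38 within Dev-3 and 0.2 within Dev-4). In Cntnap5c, of the contactin-associated protein family, chr13:6426133-6426983 had 8.8, 7.18, and 11.3 fragments in PAE and 13.2, 10.4, and 10.2 in C, with 1 sample of each without a peak (-0.24, FDR = 0.986, and -0.02 without C replicate 14). The region in Sema3e, a guidance molecule, was lower in PAE than in PF (-0.95, FDR = 0.981) and close to C (-0.12, and 0.07, 0.11, and 0.07 without C replicate 13, C replicate 15, or PAE replicate 15).

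Of the genes of cyclic nucleotide breakdown 2 were listed, with 1 region each, and neither passed the FDR. Both were higher in PAE, as were 55 of the 158 regions of their list. Pde7b and Pde8b encode phosphodiesterases that degrade cAMP. In an intron of Pde7b, chr1:15923811-15924729 had a peak in all 12 samples, with 32.3, 30.5, 34, and 33.3 fragments in PAE, 21.1, 25.5, 20.7, and 27.6 in C, and 28.2, 22.6, 20.6, and 23 in PF. The PAE samples lay above all others, at 32.5 ± 1.54 (SD, n = 4) beside 23.8 ± 3.37 in C and 23.6 ± 3.23 in PF. The difference was 0.46 ± 0.21 (SE, FDR = 0.978), and it was 0.43 within Dev-3 and 0.49 within Dev-4. In WBC of the same animals it was 0.44 (FDR = 0.966), and in younger hypothalami 0.07 at P1, -0.19 at P8, and 0.3 at P15.

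At the first exon of Pde8b, chr2:24721637-24722093 had a peak of 10.8, 19.6, and 22.2 fragments in PAE replicates 14, 15, and 16 and of 13.8 in PF replicate 14. PAE replicate 13, all C samples, and the other PF samples had none (0.94 ± 0.38, SE, FDR = 0.978). The difference was 0.31 within Dev-3 and 1.57 within Dev-4. The same 4 animals had a WBC peak, as did C replicate 13. In younger hypothalami PAE was lower, by -0.25 at P1, -0.82 at P8, and -0.37 at P15, with a peak in 1 PAE sample at each age and in 2, 3, and 2 C samples. Since this region was labelled as a first exon and the region at Spt1, a salivary protein gene, as a promoter, the promoters of both are shown to make their CpG sites visible. The Spt1 region, chosen after its values were seen, had 19, 22.7, 29, and 16.4 fragments in C and 18.6, 18.8, and 27.8 in PAE, with no peak in PAE replicate 15 (-0.4, FDR = 0.981, and 0.1 without PAE replicate 15). The sequences are from RefSeq on GRCr8, a later build than that of the peaks, and both genes are on the minus strand. Both of the 2 genes had an entry, chr2:28116002-28116301 and chr7:136918200-136918499, which was not matched to the regions of the older build. The letters CG, which read the same on both strands, are in capitals.
Pde8b: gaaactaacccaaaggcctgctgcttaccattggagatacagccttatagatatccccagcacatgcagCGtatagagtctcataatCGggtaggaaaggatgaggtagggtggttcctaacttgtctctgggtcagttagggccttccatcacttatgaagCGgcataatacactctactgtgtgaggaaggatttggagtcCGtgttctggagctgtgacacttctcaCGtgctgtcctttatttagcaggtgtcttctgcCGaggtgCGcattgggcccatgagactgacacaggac
Spt1: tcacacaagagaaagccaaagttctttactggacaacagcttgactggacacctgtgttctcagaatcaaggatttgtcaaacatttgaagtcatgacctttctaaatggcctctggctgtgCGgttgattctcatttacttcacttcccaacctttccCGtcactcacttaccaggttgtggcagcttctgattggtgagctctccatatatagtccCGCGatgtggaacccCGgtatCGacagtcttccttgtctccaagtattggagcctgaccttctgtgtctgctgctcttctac
The Pde8b promoter held 7 CG sites and the Spt1 promoter 6, and 51.4% and 56.3% of the 33469 promoters held at least as many (median 7).

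Adh4 encodes an alcohol dehydrogenase and was the only 1 of 6 listed genes of alcohol, drug, and sugar metabolism with a compared region. At chr2:243719416-243719881, at its 3' end, C replicates 14 and 16 had 15.1 and 17.4 fragments, PF replicates 14 and 15 had 13.8 and 10.3, and no PAE sample had a peak (PAE vs. C -0.6 ± 0.35, SE, FDR = 0.978). In WBC 3 C, 2 PF, and no PAE animal had a peak there (PAE vs. C -0.96, FDR = 0.966). At P8 all 4 PAE and 2 C samples had a peak (0.67), and the difference was -0.04 at P1 and -0.51 at P15.

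Of the growth factor, Wnt, and transcription genes, 2 of 8 were compared. In Etv6, a transcriptional repressor, PAE had 22.5, 39.5, 39.2, and 39.8 fragments, and C had 26.5, 38.4, and 38.8 with no peak in replicate 13 (0.58, FDR = 0.978). The difference was 0.07 without C replicate 13, and it was 1.13 within Dev-3 and 0.03 within Dev-4. In Camta1, a calmodulin-binding transcription activator, no PAE sample had a peak, beside C replicate 14 and 3 PF samples (PAE vs. PF -1.28, FDR = 0.981). Its difference of -0.55 against C was 0.08 without C replicate 14. Of the membrane traffic genes, 3 of 5 were compared and were lower in PAE (median -0.55), as were 102 of the 158 regions of their list. They were Ap3b1, a subunit of an endosomal adaptor (-0.77, FDR = 0.978), Sec23ip, which acts at endoplasmic reticulum exit sites (-0.52, FDR = 0.978), and Atg10, an enzyme of autophagy (-0.55, FDR = 0.979). These differences came from Dev-4, with -1.52, -1.06, and -1.11, while within Dev-3 they were -0.02, 0.01, and 0.0. Without C replicate 15 they were -0.57, -0.32, and -0.29. At Ap3b1 the direction was the opposite at P1, where all 4 PAE samples and no C sample had a peak (1.51 ± 0.37, SE, FDR = 0.982), with 0.47 at P8 and -0.14 at P15. At Sec23ip the differences were 0.03, 0.43, and 0.07 at these ages and -0.46 in WBC, and at Atg10 0.18 at P15.

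A region at an intron/exon boundary of Fam13a, chr4:89204996-89205584, was chosen after its values were seen. It had 20.5, 17, 18.6, and 20.4 fragments in PAE and 21.1, 17.7, 14.4, and 13 in PF, and no C sample had a peak (PAE vs. C 1.44 ± 0.34, SE, FDR = 0.791). With fold enrichment in place of height it passed, at an FDR of 0.0195, where the largest over its 24 alternative settings was 0.981. The difference was -0.14 at P1, 0.06 at P8, and -0.52 at P15, and in WBC of the same animals it was 0.32. All 12 WBC libraries, with the one labelled PF replicate 15 among them, had a peak there.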

How the data were processed

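The members and lists were chosen with earlier results of these data known. The authors aligned reads to rn6 with BWA and called peaks per sample with MACS2 2.1.0.20140616, without an input control. The deposited height is the fragment pileup at the summit, the fold enrichment, also deposited, divides this pileup by a local background that the authors' caller estimated, and the deposited -log10 p and -log10 q values of each peak are from the same caller. From these, peaks of the 12 samples that overlapped by at least 1 bp on chromosomes 1 to 20 were merged. A merged region was kept if 3 or more samples had a peak in it. Each sample's log2 heights were shifted by their median difference from the sample average, taken where all 12 had a peak, and missing peaks were set to a floor of 7.02. Group and breeding cohort were fitted with limma 3.58.1 (R 4.3.3), which was tested on simulated data first. The simulated heights were modelled on regions with a peak in all 12 samples. They do not show how the fit behaves where a whole group is at the floor. P-values were adjusted by Benjamini-Hochberg over all 222821 regions, with an FDR threshold of 0.05. FDR values of WBC and other ages are from their own fits. Sample measures were compared by exact permutation tests. WBC, P1, P8, and P15 samples were fitted alone for PAE vs. C.

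Named regions were the 8 with the smallest p in each direction of PAE vs. C, the 5 with the largest difference and no overlap with both other groups among regions with a peak in all samples, up to 6 per presence pattern, those in 14 listed genes, up to 4 per gene group, and the extremes of both lists. Regions past the FDR in another comparison, the runs of 3, Fam13a, and Spt1 were added after their values were seen. Gene symbols are those of the study's interval lists, since the annotation at hand is of another build. Alternatives in the measure, peak threshold, region rule, merging, floor, scaling, covariates, and samples were run.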

Additional observations from a re-analysis of the deposited data

Results flagged for a closer look

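A sample was taken to lie far from its group of 4 where its gap to the nearest sample made up a share of the range of the group above Dixon's critical value for 4 samples. The smallest share that passed was 0.841. Chance passes the critical value in about 1 in 20 groups. Among 113 groups at the named regions this was seen in 5, among 12 groups of sample measures in 3, and among 9 groups of component scores in 2. The causes were not tested.

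The covered length of C replicate 14 (87.3 Mb) was above the other C samples, with a gap of 0.856 of the range, and that of PF replicate 13 (85.6 Mb) above the other PF samples, with 0.844. The median height of C replicate 14 was 17 fragments and that of the other C samples 16, a gap of 1.0. PAE replicate 15 stood apart from the other PAE samples on the first component (0.933) and on the third (0.848).

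At chr1:196969305-196969803 the height of PAE replicate 13 was above the other PAE samples (0.859), and likewise at chr15:5640057-5640513 (0.923). In Etv6, at chr4:167803157-167804079, it was below them (0.964). At chr8:96107058-96107827, C replicate 15 was below the other C samples (0.889). At chr10:103695589-103696236, PF replicate 13 was above the other PF samples (0.841).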

How the results depend on the processing

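Of 173 comparisons of a result with an alternative setting, 118 stayed on the same side of their test or within the tolerance set for a count, 54 moved, and 1 no longer passed its test. The tolerance was wide. A count of regions that went from 6 to 9, or of listed intervals from 35 to 51, was taken as within it. One that went from 6 to 10 or to 3 was taken as moved. Regions called in PAE vs. C numbered 3 with fold enrichment in place of height and 30 when samples lacking a peak were dropped from the fit. In PAE vs. PF they numbered 1 with fold enrichment, 1 with peaks of -log10 q above 3, 0 with a peak in all 12 samples, 36 with missing peaks dropped, 2 with extraction round, 1 with sequencing pool, and 2 with only the compared groups in the fit. In PF vs. C the counts were 2, 2, 2, 61, 3, 3, and 1 in the same order. None of the regions called with all settings unchanged has a peak in all 12 samples, so the counts over that set do not bear on those calls. In a fit with a replicate block (numbers 13 to 16) and no breeding cohort, PAE vs. PF had 1. Replicates of equal number share a breeding cohort, and the labels name no pairing of their animals. PAE-specific regions numbered 3 with missing peaks dropped.

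Regions without overlap between PAE and C numbered 1079 with a peak in all 12 samples, where fewer regions were tested, and there the group share of the second component was 22.8% and that of the first 37.2%. Of the listed intervals, 3 developmental and 18 tissue-concordant had an unadjusted p under 0.05 with missing peaks dropped, and 51 tissue-concordant with extraction round. With 50 regions in each direction, 40.9% kept their direction at P8.

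Leaving out each sample in turn gave 0 to 17 regions in PAE vs. C, 1 to 10 in PAE vs. PF, 5 to 21 in PF vs. C, and 0 to 1 PAE-specific. Fewer samples per group make separation easier, so 8167 to 9216 regions did not overlap between PAE and C, and 1005 to 1662 had a peak in every PAE and no C sample. The listed intervals with an unadjusted p under 0.05 ranged from 2 to 6 (developmental) and 28 to 44 (tissue-concordant), and the difference in peaks from 7317.7 to 15556.

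At 68 named regions, 667 of 680 log2 differences PAE vs. C did not turn their sign or their side of the FDR threshold, where values of 0 counted as not turned. With 1 sample left out, the difference ranged from -0.35 to 0.11 at Sema3e (chr4:17516059-17516575), -0.77 to 0.08 at Camta1 (chr5:168677499-168679243), -0.64 to 0.1 at Spt1 (chr7:145339032-145339832), -0.23 to 0.07 at chr15:8970674-8971573, and -0.07 to 0.11 at chr19:53139463-53139967, where the sign turned. At chr9:12362676-12363505, with a difference of 0.0, it ranged from -0.14 to 0.13. Where a cause is not given, the cause was not tested. With 4 samples per group and heights of few fragments, small differences may have been missed, and the size that could be detected was not measured. A peak below the calling threshold is recorded as missing.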
